A study of Felis catus with 12 samples.

Results

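The enzymes of the mevalonate pathway were followed in the left ventricular wall of 12 cats, together with MMAB, the gene that lies next to mevalonate kinase in the genome. The set holds 9 genes of the 30785 listed: HMGCS1, MVK, PMVK, MVD, IDI1, FDPS, FDFT1, SQLE and MMAB. It was selected on the deposited values of PMVK and MMAB, which were lower in the libraries of the flow cell PAK20671 than in the other libraries, with no numeric threshold. That contrast therefore describes the choice and carries no test here for any of the 9 genes. Of the 9, 8 had a row in the count table, and 7 of these passed a filter of at least 10 reads in at least 3 libraries, as did 8715 genes in all. FDPS did not pass it, and IDI1, under that symbol, was not analysed here.

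The cats (Felis catus) were client-owned animals of mixed breeds, and the tissue was taken after death, with no experimental treatment or engineered genetic change in any of them. Polyadenylated RNA was sequenced directly, without conversion to DNA, by the Oxford Nanopore method. Each cat gave 1 library, and the 12 libraries were run as 4 barcodes on each of 3 flow cells. The labels put cats 11, 23, 30 and 31 on PAK20671, cats 10, 15, 35 and 36 on PAM73681, and cats 22, 29, 37 and 38 on PAM73696. By the study's cohort description, PAK20671 held 3 cats with congestive heart failure (HF) and 1 with arterial thromboembolism (ATE), PAM73681 held 2 with HF, 1 with ATE and 1 without a known cardiac death, and PAM73696 held 1 with HF and 1 with ATE. The remaining 2 libraries, labelled as cats 22 and 29, carry numbers that are not among the sequenced cats the study names. A flow cell and the cats sequenced on it cannot be told apart in this design, and p-values for flow cells measure the spread between cats of the same flow cell.

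The libraries held 789257 to 2263110 reads on genes, and 12189 to 13987 genes had a read. The range on PAK20671 was 789257 to 2263110, on PAM73681 975157 to 1756702 and on PAM73696 852825 to 1631706. Levels are given as normalised read counts, meaning reads divided by a size factor for the library, so that 3 reads corresponded to 1.45 to 4.29 units, depending on the library. The summed markers of cardiomyocytes took 9.32 to 13.3% of the reads on PAK20671 and 7.08 to 13.5% elsewhere, and all 7 of these markers had reads.

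The mevalonate pathway turns acetyl-CoA into isoprenoid units, from which cells make cholesterol, ubiquinone, dolichol and the lipid anchors of small GTPases. HMGCS1 forms HMG-CoA at the head of the route, MVK and PMVK add phosphate groups to mevalonate in turn, and MVD removes a carboxyl group to give isopentenyl diphosphate. IDI1 isomerises that unit, FDPS joins units into farnesyl diphosphate, FDFT1 joins farnesyl groups into squalene, and SQLE oxidises squalene on the way to sterols. Transcription of the pathway is known to be driven by SREBP-2 when membrane sterol is low. MMAB belongs to another route: it is a mitochondrial enzyme that attaches the adenosyl group to cobalamin, the cofactor with which methylmalonyl-CoA mutase breaks down propionate.

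PMVK and MMAB, the genes for which the set was chosen, were low in every library of PAK20671. PMVK had normalised read counts of 65.2 in cat 11, 75.2 in cat 23, 79.1 in cat 30 and 83.7 in cat 31. Its values on PAM73681 were 233 in cat 10, 242 in cat 15, 176 in cat 35 and 232 in cat 36. On PAM73696 the counts of PMVK were 305 in cat 22, 162 in cat 29, 195 in cat 37 and 194 in cat 38. The highest library of PAK20671 thus lay well under the lowest of the other 8, and the libraries of PAM73681 and PAM73696 lay in the same range. The means were 75.8 ± 7.91 (SD, n = 4) on PAK20671 and 217 ± 45.8 (SD, n = 8) elsewhere, a 2.87-fold difference. Every library held at least 56 reads of PMVK.

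MMAB had normalised read counts of 42.0 in cat 11, 53.7 in cat 23, 67.3 in cat 30 and 59.0 in cat 31. The libraries of PAM73681 had 122 in cat 10, 150 in cat 15, 141 in cat 35 and 191 in cat 36. On PAM73696 it had 169 in cat 22, 173 in cat 29, 149 in cat 37 and 123 in cat 38. As with PMVK, the groups did not overlap. The means were 55.5 ± 10.6 (SD, n = 4) on PAK20671 and 152 ± 24.2 (SD, n = 8) elsewhere, a 2.74-fold difference, and every library held at least 40 reads of the gene.

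**Figure D1:**
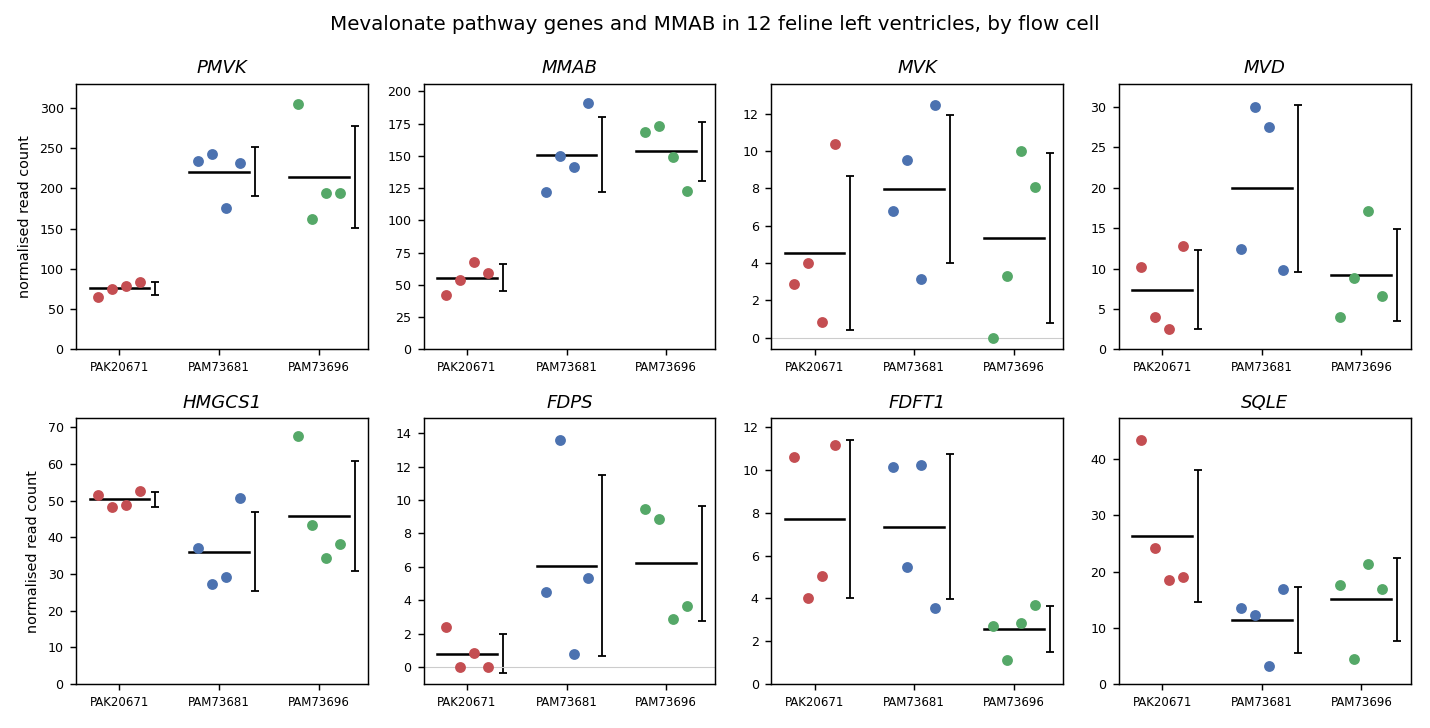
Normalised read count (vertical axis, each panel from 0 or just under it and with a scale of its own) of the 8 genes with a row, by flow cell. Each point is 1 cat, the horizontal line is the mean of 4 cats and the bar beside it is the SD. PMVK and MMAB show PAK20671 apart from the other flow cells (means 75.8 against 217 and 55.5 against 152), while the points of the other panels overlap.

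On the scale of log2(value + 1), the difference of PAK20671 from the mean of the other flow cells was -1.49 for PMVK and -1.44 for MMAB. These differences ranked 122nd and 137th from the lowest among the 8715 genes. A complete separation with PAK20671 below all other libraries was found for 219 genes, 2.51% of those tested, and with PAK20671 above for 150 genes, or 1.72%. Among the 7 tested genes of the set, 2 were separated downwards and 0 upwards, and since these 2 were the reason for the choice, nothing is read from that count. Leaving out each library in turn, the difference stayed between -1.55 and -1.39 for PMVK and between -1.54 and -1.32 for MMAB. Since the groups do not overlap, leaving out 1 library could not remove it, so these ranges are a description alone.

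PMVK and MMAB were both chosen as lower on PAK20671, so nothing is read from the similar size of their differences. Reads of PMVK per read of MMAB were 1.18 to 1.55 on PAK20671 and 0.936 to 1.92 in the other 8 libraries. Within flow cells the genes did not rank together closely. After centring each flow cell on its mean, Pearson's r between them was 0.303 (12 libraries, p = 0.349, two-sided exact permutation within flow cells). A rank correlation, with the ranks of the centred values centred again on each flow cell, was 0.351 (p = 0.311, exact permutation). Without cats 22 and 29, the 2 libraries farthest from the mean of PMVK on their flow cell, r was 0.447 (p = 0.268, exact permutation). PMVK ranked 1426th among 7182 genes in its likeness to MMAB by this measure.

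The genes most like PMVK within flow cells were, in order of centred Pearson's r over 12 libraries, ZSCAN23 (0.903), KMT2E (0.866), USP40 (0.860), KLF10 (0.860) and NAXE (0.845). Those most like MMAB were SNAP23 (0.928), USP13 (0.914), RPP21 (0.882), LOC102902396 (0.872) and CMC1 (0.868). These are the top 5 of 7182 genes each and are given as a description, since the points share library depth and normalisation.

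MMAB and MVK stand next to each other in the RefSeq annotation of the cat, and a difference between them was not tested. MVK, the kinase that acts just before PMVK, had 6, 3, 1 and 13 reads in cats 11, 23, 30 and 31 of PAK20671. There were 6, 7, 4 and 14 reads in cats 10, 15, 35 and 36 of PAM73681, and on PAM73696 0, 3, 7 and 11 in cats 22, 29, 37 and 38. The flow cells overlapped throughout. The mean normalised read count was 4.53 ± 4.11 (SD, n = 4) on PAK20671 and 6.67 ± 4.19 (SD, n = 8) elsewhere, a log2 difference of -0.44. Leaving out each library in turn, this difference of MVK ranged from -0.89 (without cat 31) to -0.015 (without cat 30). The 0 in cat 22 allows up to 4.05 normalised units.

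The share of MMAB among the reads of both neighbours was used to compare libraries. It was lowest in cat 31 (85.1%, exact Clopper-Pearson 95% interval 75.8 to 91.8%) and highest in cat 22 (100%, 125 of 125 reads, interval 97.1 to 100%). The other 3 libraries of PAK20671 had shares of 93.0 to 98.8%, within the range of 93.7 to 100% of the other flow cells or just under it. These intervals cover counting error alone. MVK had 0 to 14 reads per library, so the share cannot show whether the balance of the neighbours changed. Centred on flow cells, the values of MMAB and MVK had a Pearson's r of -0.179 (12 libraries, p = 0.596, exact permutation within flow cells). Their rank correlation, with the ranks also centred on flow cells, was -0.0562 (p = 0.879, exact permutation). Without cats 11 and 36 r was -0.544 (p = 0.198, exact permutation). In the RefSeq annotation, which is of another assembly than the one used for mapping, MMAB also overlaps UBE3B, a ubiquitin ligase gene. Whether the counting separated strands is not given in the sources used here. UBE3B had a log2 difference of -0.71 (adjusted p = 0.197, limma) between PAK20671 and the other flow cells.

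Upstream of these kinases, HMGCS1 was the steadiest gene of the set on PAK20671. HMGCS1 had normalised read counts of 51.6, 48.4, 48.8 and 52.6 in cats 11, 23, 30 and 31. On PAM73681 it had 37.2, 27.2, 29.1 and 50.8 in cats 10, 15, 35 and 36, and on PAM73696 67.5, 43.2, 34.3 and 38.2 in cats 22, 29, 37 and 38. The mean was 50.4 ± 2.10 (SD, n = 4) on PAK20671 and 41.0 ± 13.1 (SD, n = 8) elsewhere, a log2 difference of 0.35, with cats 22 and 36 reaching the level of PAK20671 or above. Its coefficient of variation on PAK20671 was 4.17%, below the 13.1% that counting alone gives at this depth.

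MVD, the decarboxylase after PMVK, was highest in cats 15 and 35 of PAM73681. It had 21, 3, 3 and 16 reads in cats 11, 23, 30 and 31. In cats 10, 15, 35 and 36 of PAM73681 there were 11, 22, 35 and 11 reads, and on PAM73696 3, 8, 12 and 9 in cats 22, 29, 37 and 38. The mean normalised read count was 7.36 ± 4.88 (SD, n = 4) on PAK20671 and 14.6 ± 9.61 (SD, n = 8) elsewhere, a log2 difference of -0.86 with overlapping libraries.

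FDPS, which makes farnesyl diphosphate, was read least. It had 5, 0, 1 and 0 reads in cats 11, 23, 30 and 31, and 4, 10, 1 and 6 reads in cats 10, 15, 35 and 36. On PAM73696 it had 7, 8, 2 and 5 reads in cats 22, 29, 37 and 38. The values of 0 in cats 23 and 31 allow up to 4.03 and 2.39 normalised units. The mean was 0.814 ± 1.14 (SD, n = 4) on PAK20671 and 6.14 ± 4.19 (SD, n = 8) elsewhere, and cat 35, with 0.788, lay under cats 11 and 30, with 2.41 and 0.842, so the groups overlapped.

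The enzymes that commit isoprenoids to sterols had higher means on PAK20671, with overlap. FDFT1, squalene synthase, had 22, 3, 6 and 14 reads in cats 11, 23, 30 and 31, 9, 4, 13 and 4 in cats 10, 15, 35 and 36, and 2, 1, 2 and 5 in cats 22, 29, 37 and 38. Its mean was 7.72 ± 3.70 (SD, n = 4) on PAK20671 and 4.97 ± 3.44 (SD, n = 8) elsewhere, a log2 difference of 0.64. SQLE, squalene epoxidase, had normalised read counts of 43.4, 24.2, 18.5 and 19.1 in cats 11, 23, 30 and 31. Cats 10, 15, 35 and 36 of PAM73681 had 13.5, 12.3, 3.15 and 16.9, and on PAM73696 17.6, 4.43, 21.5 and 16.9 in cats 22, 29, 37 and 38. Cat 37 lay above cats 30 and 31, and the other 7 libraries lay below all 4 of PAK20671. The mean of SQLE was 26.3 ± 11.7 (SD, n = 4) on PAK20671 and 13.3 ± 6.48 (SD, n = 8) elsewhere, a log2 difference of 1.05 that came to 0.79 without cat 11. Among the 8 genes the differences thus went both ways, up to 1.05 for SQLE and down to -1.49 for PMVK and -1.92 for FDPS. The value of FDPS rests on 6 reads over the 4 libraries of PAK20671 and is set by the pseudocount: it was -2.43 with a pseudocount of 0.5 and -1.43 with a pseudocount of 2, where PMVK, at -1.47, was lower.

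Over the 8 libraries of PAM73681 and PAM73696, each of the 8 genes varied by more than counting alone gives. The coefficient of variation of PMVK was 21.1% where counting alone gives 7.19%, and that of MMAB 15.9% where it gives 8.54%. For HMGCS1 the values were 32.0% and 16.5%, for SQLE 48.8% and 29.3%, and for MVD 66.0% and 27.6%. MVK (62.9% and 40.4%), FDPS (68.3% and 44.4%) and FDFT1 (69.3% and 46.0%) came closest to counting error in proportion.

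**Figure D2:**
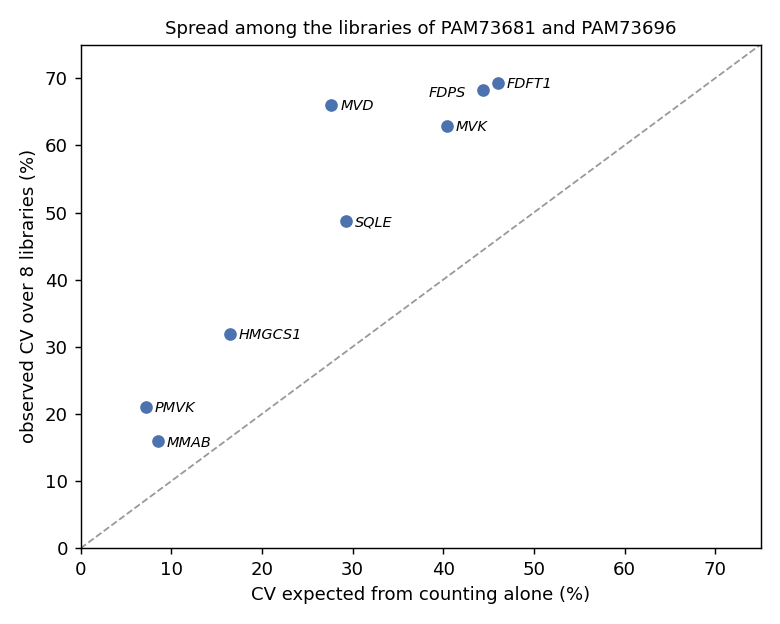
Observed coefficient of variation over the 8 libraries of PAM73681 and PAM73696 (vertical axis, %) against the value expected from counting reads alone (horizontal axis, %), 1 point per gene. The dashed line marks equality, and all 8 genes lie above it, from MMAB (15.9% observed, 8.54% from counting) to FDFT1 (69.3% and 46.0%).

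The comparison of PAM73681 with PAM73696 was not used to choose the genes, and it was tested with limma on log2(value + 1), with Benjamini-Hochberg adjustment over all 8715 genes. No gene passed an adjusted p of 0.05: limma called 0 genes (0%), with 686 genes at an unadjusted p under 0.05, and edgeR's quasi-likelihood test called 0, while DESeq2 called 23. For PMVK the difference, PAM73681 minus PAM73696, was 0.08 (SE 0.23, 95% interval -0.41 to 0.56, adjusted p = 0.968), on means of 221 and 214. For MMAB it was -0.03 (SE 0.23, interval -0.51 to 0.45, adjusted p = 0.993), on means of 151 and 153. For these well-read genes both intervals lay between -0.51 and 0.56. They are not set against the differences on PAK20671, since those chose the genes.

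The intervals of the scarcer genes were wider. FDFT1 had a difference of 1.18 (SE 0.54, interval 0.03 to 2.33, adjusted p = 0.620), on means of 7.35 and 2.59 and with 1 library of PAM73681 under the highest of PAM73696. MVD had 1.05 (SE 0.54, interval -0.10 to 2.20, adjusted p = 0.654), on means of 19.9 and 9.18. For MVK it was 0.85 (interval -0.79 to 2.49, adjusted p = 0.812), for HMGCS1 -0.33 (interval -0.91 to 0.25, adjusted p = 0.790) and for SQLE -0.38 (interval -1.47 to 0.72, adjusted p = 0.891). None of these 5 differences passed the test, and the intervals of FDFT1, MVD and MVK reach past 2 in their upper bounds.

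**Figure D3:**
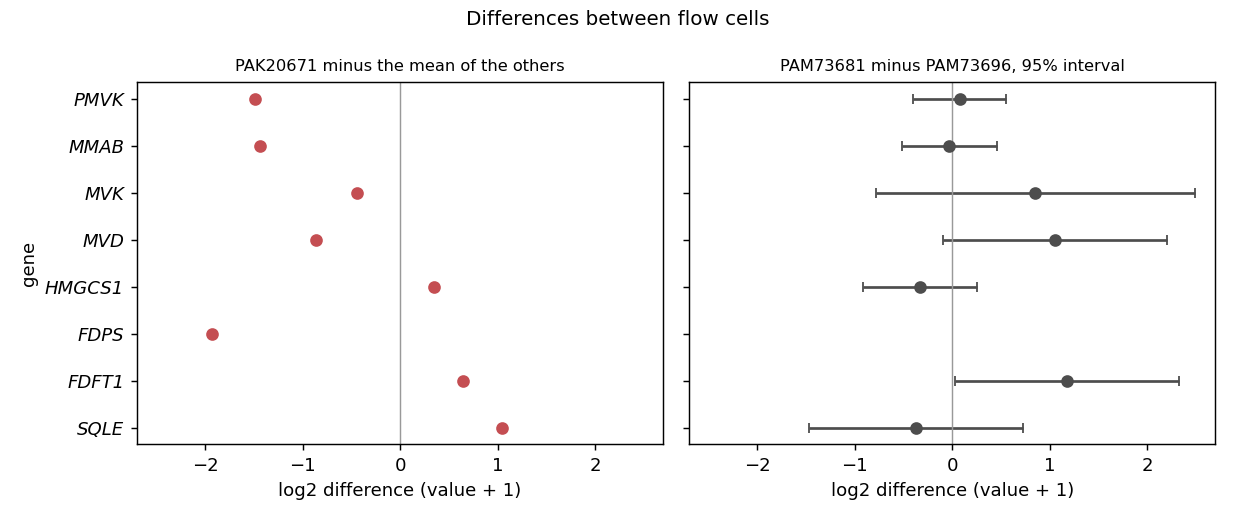
Differences on the scale of log2(value + 1) for each gene (vertical axis), as PAK20671 minus the mean of the other flow cells (left, a description without a test, since this contrast chose the set) and as PAM73681 minus PAM73696 (right, with 95% intervals from limma, FDPS not tested). On the right PMVK lies at 0.08 and MMAB at -0.03. The sides are not compared, since the left values of PMVK and MMAB chose the set.

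The same fit across all genes put the set beside the rest of sterol, isoprenoid and cobalamin metabolism in the contrast of PAK20671 with the other flow cells. Here limma called 315 of the 8715 genes lower (3.61%) and 160 higher (1.84%) on PAK20671, and the median log2 difference of all tested genes was 0.03. These counts depend on single libraries: the total of 475 became 47 without cat 11, 171 without cat 31 and 287 without cat 15. DESeq2 called 824.

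Of the other sterol synthesis enzymes described here, 9 of 13 were tested, and 0 passed in either direction. Their median log2 difference was 0.39, with 6 positive and 3 negative, in a range of -0.89 to 1.13. Of the genes of sterol sensing, uptake and export described here, 17 of 21 were tested, and 0 passed. Their median was -0.21, with 6 positive and 11 negative, in a range of -0.73 to 0.52.

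Of the genes that use isoprenoids (prenyltransferases and the enzymes of ubiquinone and dolichol synthesis), 23 of 25 were tested, 2 were lower on PAK20671 and 0 higher, with a median of 0.23. Both belong to ubiquinone synthesis. COQ5, a methyltransferase of that route, had a log2 difference of -1.19 (SE 0.32, adjusted p = 0.0423, limma), with normalised read counts of 18.3 to 52.4 on PAK20671 and 37.8 to 117 elsewhere. COQ8A, an atypical kinase of the same route, had -0.98 (SE 0.27, adjusted p = 0.0477, limma), with 79.8 to 232 and 157 to 440. Both overlapped between flow cells, and edgeR gave an adjusted p of 0.0550 for COQ5 and 0.0880 for COQ8A. The call was lost when 1 library was left out in 8 of 12 cases for COQ5 and in 11 of 12 for COQ8A.

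The genes around MMAB in cobalamin and propionate metabolism did not pass the test. Of 13 with a row, 12 were tested, with a median log2 difference of -0.30, 3 positive and 9 negative. Among the enzymes of mitochondrial ketone bodies, which also work on acetoacetyl-CoA and HMG-CoA, 3 of 5 were tested and 1 was lower. That gene was ACAT1, the mitochondrial thiolase, with normalised read counts of 250.0, 489, 407 and 372 in cats 11, 23, 30 and 31 and of 595 to 981 in the other 8 libraries. Its groups did not overlap, and the log2 difference was -1.03 (SE 0.20, adjusted p = 0.00952, limma). Without cat 11 it was -0.84 (adjusted p = 0.0516, limma). In the comparison of PAM73681 with PAM73696, 0 genes of any of these lists were called by limma.

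**Figure D4:**
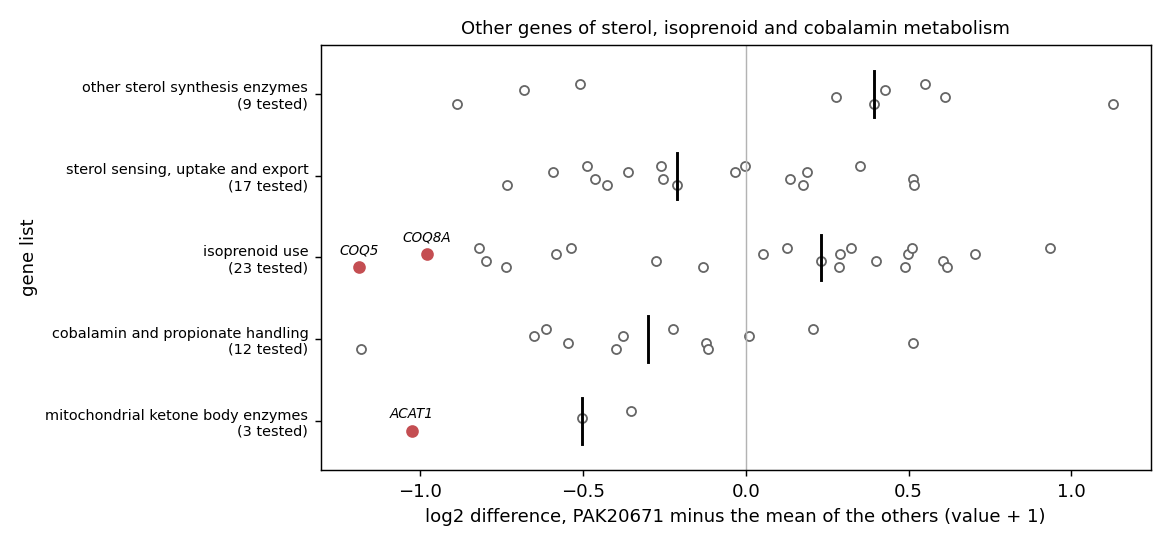
Log2 difference, PAK20671 minus the mean of the other flow cells (horizontal axis, log2(value + 1) scale), of each tested gene in the 5 lists (rows). Filled points passed an adjusted p of 0.05 in limma, open points did not, and the vertical bars are list medians. ACAT1 (-1.03), COQ5 (-1.19) and COQ8A (-0.98) are the filled points, all left of 0.

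**Figure D5:**
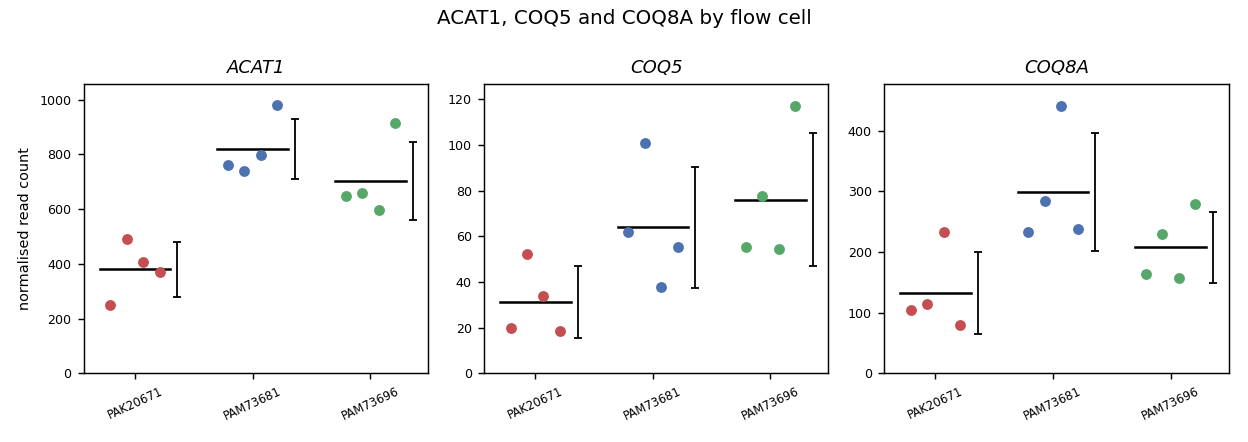
Normalised read count (vertical axis, a scale of its own in each panel) of ACAT1, COQ5 and COQ8A by flow cell. Each point is 1 cat, the line is the mean and the bar the SD of 4 cats. For ACAT1 the points of PAK20671 (250.0 to 489) do not overlap with the others (595 to 981), while those of COQ5 and COQ8A do.

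Markers of other cell types also moved with PAK20671. In these tissue samples, fewer cells of a type and less RNA per cell cannot be told apart. Among all tested genes, limma called 3.61% lower and 1.84% higher on PAK20671, and these calls fell from 475 to 47 without cat 11. Of 7 cardiomyocyte markers, 3 (TNNT2, TNNI3 and PLN) were called lower. The summed share of the 7 overlapped, with 9.32 to 13.3% on PAK20671 and 7.08 to 13.5% elsewhere. Of 6 fibroblast markers, the collagen genes COL1A1, COL1A2 and COL3A1 were called higher. The summed fibroblast list took 0.0884 to 0.301% of reads on PAK20671 and 0.0208 to 0.148% elsewhere. Of 5 tested markers of smooth muscle and pericytes, TAGLN and CNN1 were called higher, with a summed share of 0.0433 to 0.107% on PAK20671 and 0.00916 to 0.0298% elsewhere. None of the tested markers of endothelium (6 of 6), leucocytes (5 of 6) or adipocytes (1 of 5) were called. Their summed shares were 0.0361 to 0.0769%, 0.00634 to 0.0212% and 0.000442 to 0.00165% on PAK20671. Elsewhere they were 0.0234 to 0.0900%, 0.00349 to 0.0446% and 0.000454 to 0.00195%. The part of these shares in the values of PMVK, MMAB and ACAT1 was not tested.

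The study set expression beside histology and age, so the genes were also compared with myocardial fibrosis (8 cats) and age (9 cats), using Spearman's rho, exact permutation over cats (two-sided) and adjustment over 8715 genes. For fibrosis, 0 genes passed (0%), with 247 at an unadjusted p under 0.05, and for age, 0 genes (0%), with 415. With 40320 orderings of 8 cats, no gene could pass this adjustment on its own. With 362880 orderings of 9 cats, only a perfect rank order could. The permutation counts of 0 therefore say little about the genes. limma slopes on log2 values also called 0 for both. Because PMVK and MMAB fall into separate clusters by flow cell, they are given only after centring each flow cell. PMVK then had a Pearson's r of 0.435 with fibrosis (7 cats, p = 0.333, exact permutation) and of 0.273 with age (9 cats, p = 0.694, exact permutation). For MMAB r was -0.256 (7 cats, p = 0.604, exact permutation) and 0.221 (9 cats, p = 0.618, exact permutation).

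None of the other genes passed the test with fibrosis, with rho between 0 (FDFT1) and 0.381 (SQLE, 8 cats, p = 0.360, exact permutation, adjusted p = 1). With age all 6 coefficients were negative, from -0.0586 (FDPS) to -0.600 (HMGCS1, 9 cats, p = 0.0968, exact permutation, adjusted p = 0.918). For HMGCS1, Pearson's r of log2 values was -0.355 (p = 0.348, exact permutation) and, after centring each flow cell, -0.689 (p = 0.0174, exact permutation, adjusted p = 0.637). Without the cats farthest from the median age, r was -0.449 (cats 15 and 30 left out) or -0.616 (cats 30 and 36 left out). MVK had a rho of -0.567 (9 cats, p = 0.121, exact permutation, adjusted p = 0.918) and a Pearson's r of -0.572 (p = 0.105, exact permutation), which went to -0.354 without cats 15 and 30 and to 0.0662 without cats 30 and 36, so that it rested on those cats. Reads on genes themselves had a rho of -0.700 with age (9 cats, p = 0.0433, exact permutation), and the part of depth in these coefficients was not tested.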

How the data were processed

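Left ventricular RNA of 12 cats was sequenced directly on 3 flow cells. Per the methods, base calling (Guppy) and a quality filter were followed by mapping to felCat9 (Minimap2) and counting of reads per gene (FeatureCounts). The versions and strand setting of the last 2 steps are not given in the sources used here. The signal values the authors deposited are these counts divided by a size factor per library, which is not stated in the methods. Every value (100%) was a whole multiple of the value of 1 read within 1e-06, so whole reads were recovered. RefSeq's gene table is of another assembly (F.catus_Fca126_mat1.0), and it was used for gene order and overlap alone. No coordinates or sequences are printed.

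Groups are the flow cells named in the labels. No outcome groups were compared, since the labels give none. The libraries labelled as cats 22 and 29 entered the flow cell comparisons and were left out of the trait tests. Age and myocardial fibrosis came from the study's cohort description. Tested were genes that had 10 or more reads in 3 or more of the other 10 libraries (8715 of 30785, 18070 of which had a read). limma 3.58.1 (R 4.3.3) was fitted to log2(value + 1) with 1 mean per flow cell and an intensity trend, and a fold change on this scale understates the change of genes with few reads. A call is an adjusted p (Benjamini-Hochberg) under 0.05. Trait tests used Spearman's rho with exact permutation (SciPy, Python). Counting variation was computed from the read numbers, and intervals and values for 3 reads cover counting error alone, since reads carry no molecular identifiers. The fits were tested on simulated data. Alternatives were other scaling, pseudocounts of 0.5 and 2, other filters, edgeR 4.0.16, DESeq2 1.42.0, the barcode as a block, each library left out, and for traits other coefficients.

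The genes, gene lists (other sterol synthesis enzymes, sterol sensing, uptake and export, isoprenoid use, cobalamin and propionate handling, mitochondrial ketone body enzymes) and markers were chosen with earlier results of these data known. A few genes of these lists are not reported here and are left out of the list counts, medians and figures. Named beyond the 9 genes were at most the 4 list genes with the lowest adjusted p under 0.05, the 5 genes most like PMVK and MMAB among those with a median of at least 10 reads, and annotated neighbours.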

Additional observations from a re-analysis of the deposited data

Results flagged for a closer look

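Among the 24 groups of 4 libraries examined (8 genes on 3 flow cells), 1 held a library set apart from its group by Dixon's criterion. PMVK in cat 35 of PAM73681 had a normalised read count of 176, against 232 to 242 in cats 10, 15 and 36, and the gap to the nearest of these was 0.837 of the range of the group, just above the critical value for 4 libraries. The library lay above the 65.2 to 83.7 of PAK20671, but PMVK was chosen for that contrast, so nothing is read from this. Chance marks about 1 in 20 such groups.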

How the results depend on the processing

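The count of genes called between PAM73681 and PAM73696 was 0 with limma, and 1 with TMM scaling, 1 with a pseudocount of 2, 3 with these 8 libraries alone and 23 with DESeq2. Leaving out each library in turn gave 0 to 2. For PAK20671 against the other flow cells, the count of 475 became 824 with DESeq2 and ranged from 47 (without cat 11) to 530 (without cat 23), with 171 without cat 31 and 287 without cat 15. The causes of these changes were not tested. With the barcode number as a block (replicate block) the counts were 0 and 567. Barcode numbers mark positions in the multiplexing and not shared animals, so this block carries no pairing. For fibrosis and age the count was 0 under every alternative run, with 0 to 0 when cats were left out. With so few cats a gene could hardly pass the permutation tests on its own, so these counts say little.

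Differences between PAM73681 and PAM73696 near 0 changed sign when a library was left out: PMVK to -0.0446 (without cat 29, range -0.0446 to 0.259), MMAB to 0.0654, 0.0198 and 0.0314 (without cats 10, 22 and 29, range -0.149 to 0.0654) and SQLE to 0.0906 (without cat 35, range -0.837 to 0.0906). None of the 7 genes passed the test under any alternative run, where adjusted p-values lay between 0.561 and 0.997 when libraries were left out. The differences of the 8 genes on PAK20671 kept their sign under every alternative run. For PMVK and MMAB, which chose the set, this is no support. Leaving out 1 of 4 libraries cannot move a difference by 1 SD between libraries, so stability is not read from those runs. MVK ranged from -0.89 to -0.015 when libraries were left out. FDPS was -2.43 with a pseudocount of 0.5 and -1.43 with a pseudocount of 2.

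ACAT1 kept its call under the 8 alternatives that left out no library, and lost it without cat 11. COQ5 and COQ8A lost theirs with all genes tested (adjusted p = 0.0602 and 0.0665) and with edgeR. Of the 6 genes compared with age, 4 to 6 had a negative coefficient when cats were left out, and with fibrosis 0 to 2. Under the other alternatives the counts were 4 to 6 with age and 0 to 3 with fibrosis. With the libraries labelled as cats 22 and 29 entered, 4 were negative with age, among them MVK with a rho of -0.236. In that setting rho was 0.191 for FDFT1 and 0.173 for SQLE. Depth limits the genes of few reads: MVK and FDFT1 fail a filter of 10 reads in 6 libraries, and FDPS fails both.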
